A study of Mus musculus with 8 samples.

Results

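The small leucine-rich proteoglycans (SLRPs) are represented here by the 8 mouse genes *Dcn*, *Bgn*, *Lum*, *Ogn*, *Prelp*, *Fmod*, *Aspn* and *Omd*, taken by gene symbol from a table of 50600 genes. Of these, 7 were among the 14497 genes that had at least 10 counts in at least 2 libraries, and *Lum* was not. The cells were NF1-MET, a line from a mouse malignant peripheral nerve sheath tumor (MPNST) with *Met* amplification that is labelled WT, and its derivative NF1-MET;sgP53, which carries a CRISPR guide to *Trp53*. Wells of each line were given DMSO (vehicle) or 100 nM of capmatinib, an inhibitor of the MET receptor tyrosine kinase, for 24 h. Each of the 4 groups had 2 poly(A) RNA-seq libraries, labelled biological replicates 1 and 2. The treatments are described as done in duplicate in a 6-well plate, so the p-values measure the spread between wells. All 4 groups share the NF1-MET background, given by the study as *Nf1* fl/ko with a lox-stop-lox MET transgene and Plp-creERT, in which Cre is under the control of *Plp* sequences, a marker of the Schwann lineage, and with a *Cdkn2a* deletion. With 1 line per genotype, loss of p53 and other differences between the lines cannot be told apart. Column names of the NF1-MET libraries hold the letters EV, which might mean an empty vector. The study describes a control line, NF1-MET;sgEmptyVector, made with the guide vector without a guide. Whether that line was the one sequenced is not stated.

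SLRPs are secreted proteins whose core of leucine-rich repeats binds collagen and sets the spacing and width of collagen fibrils in tendon, skin, bone, cornea and the sheath of peripheral nerve. Class I (*Dcn*, *Bgn*, *Aspn*) and class II (*Fmod*, *Lum*, *Prelp*, *Omd*) differ in their cysteine pattern and in the chains they carry, chondroitin or dermatan sulfate in *Dcn* and *Bgn* of the first and keratan sulfate in most of the second, and *Ogn* is in class III. Several also bind growth factors and receptors, with transforming growth factor β (TGFβ) the best known, and decorin (*Dcn*) is a ligand that antagonizes MET and EGFR.

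In both lines, capmatinib-treated cells held much more *Ogn*, *Prelp*, *Fmod* and *Aspn* RNA than vehicle-treated cells, more *Omd* and *Bgn* RNA by smaller factors, and no more *Dcn*. In NF1-MET, *Prelp* rose 92.5-fold, *Ogn* 83.2-fold, *Fmod* 60.2-fold, *Aspn* 53.8-fold, *Omd* 6.58-fold and *Bgn* 1.898-fold, while *Dcn* was at 0.552 of its vehicle level, a call that was lost in DESeq2 (adjusted p = 0.115) and without either of 2 libraries. In NF1-MET;sgP53 the rises were 62.4-fold for *Prelp*, 26.5-fold for *Ogn*, 27.6-fold for *Fmod*, 41.8-fold for *Aspn*, 3.99-fold for *Omd* and 1.74-fold for *Bgn*, and *Dcn* did not pass the test (-0.31 on the log2 scale, edgeR adjusted p = 0.255). Between the lines, *Ogn* was 3.35-fold higher in NF1-MET;sgP53 under vehicle and 1.07-fold higher under capmatinib. In bulk RNA, fewer cells that make an RNA and less of it per cell cannot be told apart.

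The libraries held 30116810 to 42781371 counts, and levels are given as counts per 1000000 (CPM) after scaling with TMM factors, as mean ± SD of 2 libraries. The counts have no molecular identifiers, so intervals from counts cover counting error only. Genes were tested with the quasi-likelihood F-test of edgeR, p-values were adjusted by the Benjamini-Hochberg method over all genes tested, and an adjusted p under 0.05 was the threshold. *Gm42418*, which overlaps ribosomal RNA, took 1.11% to 13.1% of the counts of a library. It was at 10.1% and 5.29% with vehicle and at 11.5% and 13.1% with capmatinib in NF1-MET (log2 difference 0.85, edgeR adjusted p = 9.45e-07), and at 7.89% and 3.16% against 10.02% and 1.11% in NF1-MET;sgP53 (0.18, adjusted p = 0.780), and the members' capmatinib calls were the same with this gene left out. *Trp53* RNA was 188 ± 7.70 CPM in NF1-MET and 98.7 ± 1.82 CPM in NF1-MET;sgP53 under vehicle, and 127 ± 2.02 CPM against 68.4 ± 0.556 CPM under capmatinib. Of 8 Schwann cell markers, *S100b*, *Sox10*, *Erbb3*, *Ngfr* and *Mbp* stayed under 1 CPM in all 8 libraries. So did all 4 endothelial and all 4 epithelial markers, 2 of 4 of tendon cells, 4 of 5 of chondrocytes, 4 of 5 of osteoblasts and 3 of 4 of macrophages. The others of these lists were the tendon genes *Scx* (4.82 to 7.72 CPM as group means) and *Mkx* (4.09 to 7.53 CPM), with capmatinib differences of 0.64 and 0.84 in NF1-MET (both called) and 0.25 (adjusted p = 0.0538) and 0.71 (called) in NF1-MET;sgP53, *Sox9* of cartilage, which fell from 65.0 to 16.2 CPM in NF1-MET and from 50.3 to 18.4 CPM in NF1-MET;sgP53, *Runx2* of bone (64.5 to 79.9 CPM, higher by 0.23 and 0.28) and *Cd68* of macrophages (0.913 to 1.73 CPM, with differences of -0.90 and -0.64). The 5 fibroblast markers summed to 3731 to 3787 CPM in NF1-MET and 4800 to 4808 CPM in NF1-MET;sgP53 under vehicle, and to 18498 to 18726 CPM and 18868 to 18941 CPM under capmatinib. Most of this was *Col1a1*, which like *Col3a1* is also in the collagen list. In NF1-MET 3 of the 5 rose and 2, *Fap* (-1.05) and *Pdgfra* (-0.38), fell, and in NF1-MET;sgP53 3 rose and *Pdgfra* fell (-0.32). The part of these markers in the SLRP results was not tested.

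The genes lie in 4 places of the mm10 genome, by GENCODE release M21. On chromosome 13, *Aspn* (chr13:49544443-49567565), *Omd* (chr13:49582462-49592822) and *Ogn* (chr13:49608046-49624501) stand in a row on the plus strand behind the SLRP-like gene *Ecm2*, all within the span of the minus-strand gene *Cenpp*. On chromosome 1, *Prelp* (chr1:133910304-133921414) is on the minus strand and *Fmod* (chr1:134037254-134048277) on the plus strand, with *Optc* next to *Prelp*. On chromosome 10, *Dcn* (chr10:97479609-97518143) and *Lum* (chr10:97565128-97572703) are followed by *Kera* and *Epyc*, and *Bgn* (chrX:73483602-73495933) is the only SLRP gene of its stretch. All 8 code for protein, with 3 to 9 exon blocks when their transcripts are merged. Strand use in the counting is not given in the sources used here. Exons of *Cenpp* shared 7 bases with *Aspn* and none with *Omd* or *Ogn*, and those of the antisense RNA *Gm15851*, with 0 to 7 counts per library, shared 350 bases (9.68%) with *Prelp*.

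For the 4 genes with the largest rises, and for *Bgn* as the abundant gene with a small rise, the 250 bases before the start site are shown as RefSeq gives them on GRCm38.p6, the assembly of mm10. They are printed 5′ to 3′ on the gene's own strand. Capitals mark matches, on either strand, to the TATA box (TATAAA), the CCAAT box (CCAAT), the GC box (GGGCGG), a TEAD motif (GGAATG) and a RUNX motif (TGTGGT).
Ogn: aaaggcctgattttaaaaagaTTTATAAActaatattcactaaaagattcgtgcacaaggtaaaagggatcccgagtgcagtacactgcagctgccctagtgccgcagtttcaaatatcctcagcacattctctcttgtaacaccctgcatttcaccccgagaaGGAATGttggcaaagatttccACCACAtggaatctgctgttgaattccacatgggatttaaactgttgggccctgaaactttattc
Aspn: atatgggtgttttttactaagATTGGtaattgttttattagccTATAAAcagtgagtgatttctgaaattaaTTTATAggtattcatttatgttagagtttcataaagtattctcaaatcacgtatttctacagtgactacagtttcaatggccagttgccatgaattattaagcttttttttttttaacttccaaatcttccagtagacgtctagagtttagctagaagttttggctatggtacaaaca
Prelp: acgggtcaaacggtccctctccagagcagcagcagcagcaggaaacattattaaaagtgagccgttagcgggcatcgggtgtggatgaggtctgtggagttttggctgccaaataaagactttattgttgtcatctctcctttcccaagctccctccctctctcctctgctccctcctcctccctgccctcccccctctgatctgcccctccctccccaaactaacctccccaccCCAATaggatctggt
Fmod: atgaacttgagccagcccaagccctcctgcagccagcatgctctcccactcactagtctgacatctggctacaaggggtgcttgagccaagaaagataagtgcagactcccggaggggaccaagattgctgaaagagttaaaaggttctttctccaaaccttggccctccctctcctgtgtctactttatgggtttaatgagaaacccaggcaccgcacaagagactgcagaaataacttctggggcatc
Bgn: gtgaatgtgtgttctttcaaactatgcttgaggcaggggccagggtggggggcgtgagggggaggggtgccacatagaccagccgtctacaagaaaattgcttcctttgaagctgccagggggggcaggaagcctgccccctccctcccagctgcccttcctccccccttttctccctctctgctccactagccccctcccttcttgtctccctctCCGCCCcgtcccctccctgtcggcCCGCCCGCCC
These are chr13:49607765-49608014 for *Ogn*, chr13:49544193-49544442 for *Aspn*, chr1:133921402-133921651 for *Prelp* (minus strand), chr1:134037004-134037253 for *Fmod* and chrX:73483351-73483600 for *Bgn*.
The windows differ in base composition. GC content was 30% in *Aspn*, 42.0% in *Ogn*, 51.2% in *Fmod*, 55.6% in *Prelp* and 64.4% in *Bgn*, and the *Omd* window had 38.4%. Matches were counted over the 300-base windows of the table, which add 50 bases after the start, and 6 of the 8 members had one. TATAAA was found in *Ogn*, where matches on both strands overlap, and in *Aspn*, against 14.2% of 27025 promoters. Counted from the start site, these matches began at -229 and -227 in *Ogn* and at -207 and -178 in *Aspn*, in the far part of the window. GGGCGG was found in *Bgn* alone of the members, against 35.9%. GGAATG (14.6% of promoters) and TGTGGT (16.9%) were found in *Ogn* alone of the members, and CCAAT (37.9%) in *Aspn*, *Prelp* and *Fmod*, the last after the start. The AP-1 motif TGANTCA (7.93%), the CArG box (1.57%) and the p53 half-site (8.37%) were in none of the 6, and the *Omd* window held none of the motifs named here. The matches describe letters in a window, and no binding was measured.

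**Figure D1:**
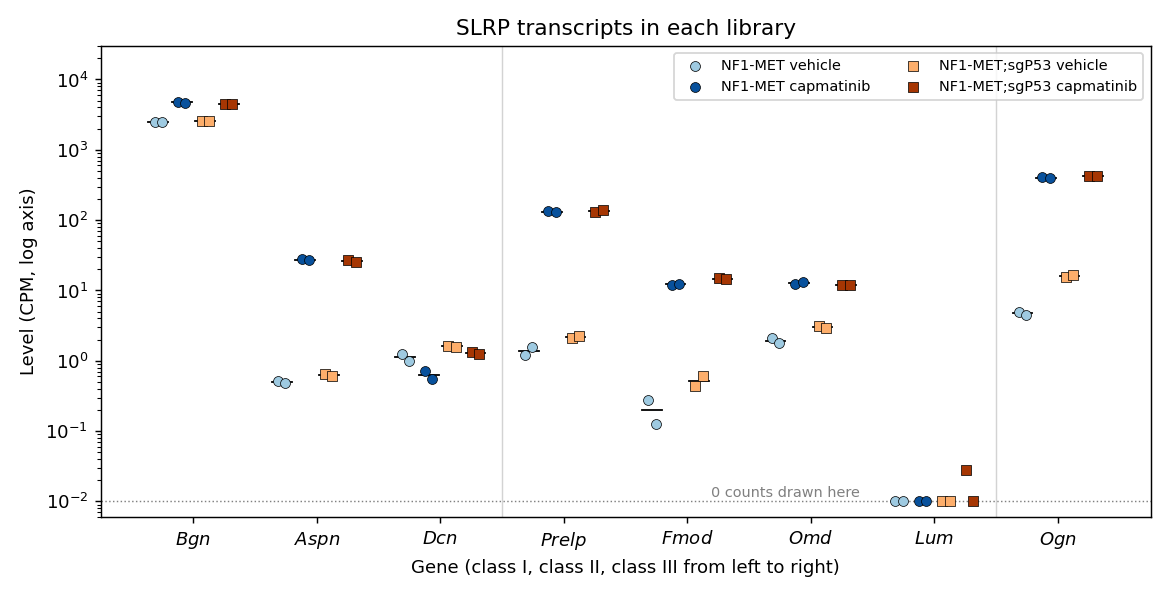
CPM of each SLRP gene in each of the 8 libraries on a log axis, 2 points per group with a bar at their mean, and libraries without a count drawn on the dotted line. *Ogn*, *Prelp*, *Fmod*, *Aspn* and *Omd* are higher in every capmatinib library than in every vehicle library, *Bgn* is high in all 8, and *Lum* has 1 count in 1 library.

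Whether MET inhibition changes the RNA of these genes was asked first in NF1-MET. Of the 7 members tested, 6 rose and 1 fell, where 35.5% of all genes tested were called higher and 34.7% lower. Their median log2 difference was 5.75 beside 0.00 over all genes. In 6 members both capmatinib libraries were above both vehicle libraries, as in 43.2% of genes tested, and in *Dcn* both were below, as in 40.4%. The 7 members would have passed the count filter on the vehicle libraries alone, since each had at least 10 counts in 3 or more of the 4 vehicle libraries.

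*Ogn* codes for osteoglycin (mimecan), a class III member found in bone, vessel wall and many connective tissues. In NF1-MET it was at 4.96 and 4.54 CPM in the vehicle libraries and at 404 and 395 CPM in the capmatinib libraries, from 180 and 181 counts against 11182 and 15159 counts. The groups stood far apart. The log2 difference was 6.38 (SE 0.0425, adjusted p = 9.00e-42), rank 20 of the 14496 genes tested. It ranked 5 among the 9071 genes that reached 10 CPM on average in 1 or more of the 4 groups. *Prelp*, *Fmod*, *Aspn* and *Omd* were under 10 CPM in both vehicle groups and entered that set through their capmatinib level. Ranks within the set are therefore a description, and both ranks are given.

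*Prelp* codes for a class II protein with a basic, heparin-binding end that links basement membranes to collagen. It stood at 1.21 and 1.58 CPM with vehicle and at 135 and 129 CPM with capmatinib. The log2 difference of 6.53 (SE 0.0703, adjusted p = 3.33e-36) ranked 16 of the 14496 genes tested and 3 among the same 9071 genes. *Fmod* codes for fibromodulin, a class II keratan sulfate proteoglycan of tendon and cartilage that binds collagen and lysyl oxidase. It was near the limit of detection with vehicle, at 0.275 and 0.125 CPM from 10 and 5 counts, and reached 12.1 and 12.2 CPM with capmatinib from 336 and 470 counts. Its log2 difference was 5.91 (SE 0.201, adjusted p = 1.60e-22), rank 35 of 14496 and 8 of 9071. Its SE was the largest among the 6 members that rose. Without vehicle replicate 1 of NF1-MET the value was 6.57, and without vehicle replicate 2 it was 5.45.

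*Aspn* codes for asporin, a class I protein with a run of aspartate residues and no glycosaminoglycan chain, which binds collagen and TGFβ1. It was at 0.523 and 0.476 CPM with vehicle, from 19 counts in each library, and at 27.6 and 27.1 CPM with capmatinib. The log2 difference was 5.75 (SE 0.128, adjusted p = 1.39e-27), rank 40 of 14496 and 9 of 9071. *Omd* codes for osteomodulin (osteoadherin), an acidic class II protein of mineralizing bone. It went from 2.09 and 1.78 CPM to 12.4 and 13.2 CPM, a log2 difference of 2.72 (SE 0.121, adjusted p = 2.54e-19) that ranked 312 of 14496 and 89 of 9071. *Omd* lies between *Aspn* and *Ogn* on chromosome 13 and rose by a smaller factor than either.

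*Bgn* codes for biglycan, a class I proteoglycan that binds collagen and TGFβ and signals through TLR2 and TLR4 when released. It was abundant in every library, with 2467 and 2452 CPM under vehicle and 4738 and 4706 CPM under capmatinib. The groups did not overlap and replicates differed little, so that the modest log2 difference of 0.92 had an SE of 0.0146 (adjusted p = 9.41e-32). It ranked 1906 of 14496 and 740 among the 9071 genes.

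*Dcn* codes for decorin, which is abundant in dermis and other fibrous tissue. It was at the low end of detection here, with 45 and 40 counts under vehicle and 20 and 21 counts under capmatinib, or 1.24 and 1.00 CPM against 0.723 and 0.547 CPM. The log2 difference was -0.86 (SE 0.312, adjusted p = 0.0154), and both capmatinib libraries were lower. This call was lost in the Wald test of DESeq2 (adjusted p = 0.115) and, in edgeR, without vehicle replicate 1 (-0.69, adjusted p = 0.0981) or capmatinib replicate 2 of NF1-MET (-0.63, adjusted p = 0.159). *Lum* codes for lumican, a class II keratan sulfate proteoglycan of cornea and connective tissue. It had 0 counts in 7 libraries and 1 count in replicate 1 of NF1-MET;sgP53 with capmatinib. A count of 0 allows up to 3 counts, or 0.0701 to 0.0996 CPM by library.

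The same comparison in NF1-MET;sgP53 gave 6 members called higher and none called lower in edgeR, where 34.2% of genes were called higher and 33.4% lower. *Dcn* was the member not called, at an unadjusted p of 0.203, and DESeq2 called the same 6 higher and none lower. The median log2 difference of the 7 members was 4.73 beside 0.00 over all genes. Both capmatinib libraries were above both vehicle libraries in 6 members, as in 41.9% of genes tested.

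*Ogn* in NF1-MET;sgP53 was at 15.4 and 16.7 CPM with vehicle and 430 and 424 CPM with capmatinib. Its log2 difference of 4.73 (SE 0.0412, adjusted p = 3.31e-27) ranked 45 of the 14497 genes tested and 12 of the 9071. *Prelp* went from 2.12 and 2.22 CPM to 132 and 140.0 CPM. Its log2 difference of 5.96 (SE 0.0570, adjusted p = 1.62e-26) ranked 15 of 14497 and 3 of the 9071. *Prelp* thus held the same rank in both lines among the 9071 genes. *Aspn* went from 0.640 and 0.608 CPM to 26.9 and 25.5 CPM, by 5.39 (SE 0.121, adjusted p = 3.59e-20), and *Fmod* from 0.436 and 0.608 CPM to 15.2 and 14.3 CPM, by 4.79 (SE 0.148, adjusted p = 1.13e-17). For each of these genes both capmatinib libraries were far above both vehicle libraries.

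*Omd* was at 3.14 and 2.95 CPM with vehicle and at 12.1 CPM in both capmatinib libraries of NF1-MET;sgP53, a log2 difference of 2.00 (SE 0.104, adjusted p = 1.14e-13). *Bgn* went from 2609 and 2585 CPM to 4509 and 4532 CPM, by 0.80 (SE 0.0188, adjusted p = 8.29e-20). *Dcn* had 56 and 68 counts with vehicle and 47 and 46 counts with capmatinib, 1.63 and 1.59 CPM against 1.33 and 1.27 CPM. The groups of *Dcn* did not overlap, and its log2 difference of -0.31 (SE 0.233, adjusted p = 0.255) did not pass the test.

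**Figure D2:**
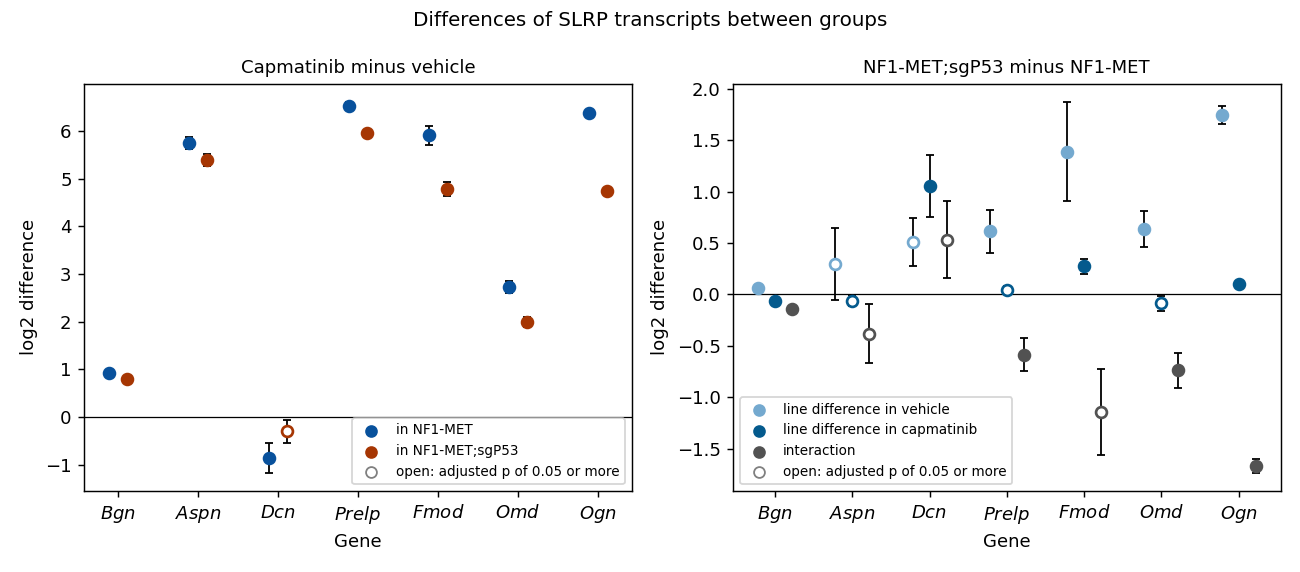
Log2 differences of the 7 SLRP genes tested, with bars of 1 SE. Left, capmatinib minus vehicle in each line, with *Prelp*, *Ogn*, *Fmod* and *Aspn* between 4.73 and 6.53. Right, NF1-MET;sgP53 minus NF1-MET under each treatment and the interaction, with *Ogn* at 1.74 under vehicle, 0.10 under capmatinib and -1.67 for the interaction.

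Whether the lines differed before treatment was read from the vehicle libraries. In vehicle, 5 of 7 members were called higher in NF1-MET;sgP53 and none lower in edgeR, all 7 differences being above 0, where 10.9% of all genes were called higher and 12.3% lower. The members' median was 0.61 beside 0.00 over all genes. With all libraries in, *Ogn* had the largest difference of the members, at 1.74 on the log2 scale (SE 0.0909, adjusted p = 1.55e-11). It ranked 128 of the 14484 genes tested and 12 among the 9071 genes. The value of *Fmod*, next in size, moved with single libraries left out, as given below. *Fmod* differed by 1.39 (SE 0.480, adjusted p = 0.0423), from 15 counts in the NF1-MET libraries together and 41 in the others. *Omd* differed by 0.63 (SE 0.175, adjusted p = 0.0118), *Prelp* by 0.61 (SE 0.208, adjusted p = 0.0385) and *Bgn* by 0.06 (SE 0.0170, adjusted p = 0.0149). The 2 members not called were *Dcn* at 0.51 (unadjusted p = 0.0439, adjusted p = 0.135 in edgeR) and *Aspn* at 0.30 (adjusted p = 0.602). In all 7 both NF1-MET;sgP53 libraries were above both NF1-MET libraries, as in 34.5% of genes tested, while 26.0% of genes were below in both libraries and no member was.

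The calls of *Prelp*, *Fmod* and *Omd* under vehicle were lost in DESeq2 (adjusted p = 0.228, 0.252 and 0.105), that of *Bgn* with library totals in place of TMM factors (adjusted p = 0.347), and that of *Fmod* without the count filter (adjusted p = 0.0611). That of *Prelp* was lost without NF1-MET vehicle replicate 1 (0.46, adjusted p = 0.113), which moved *Fmod* to 2.05, and that of *Fmod* without NF1-MET vehicle replicate 2 (0.94, adjusted p = 0.174) or NF1-MET;sgP53 vehicle replicate 2 (1.13, adjusted p = 0.140).

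Under capmatinib the differences between the lines were smaller in *Ogn*, *Fmod*, *Prelp*, *Omd* and *Aspn*. In this comparison, 5.94% of genes were called higher in NF1-MET;sgP53 and 6.34% lower, and of the 7 members 3 were called higher and 1 lower. *Dcn* was 1.06 higher on the log2 scale (SE 0.300, adjusted p = 0.0266), *Fmod* 0.28 higher (SE 0.0729, adjusted p = 0.0179) and *Ogn* 0.10 higher (SE 0.0265, adjusted p = 0.0201). *Bgn* was lower, at -0.06 (SE 0.0123, adjusted p = 0.00200). *Prelp* (0.05), *Aspn* (-0.06) and *Omd* (-0.09) did not pass the test, with SE of 0.0366, 0.0541 and 0.0751. Both libraries of NF1-MET;sgP53 lay above both of NF1-MET in *Dcn*, *Fmod* and *Ogn* (25.7% of genes tested) and below in *Bgn*, *Aspn* and *Omd* (26.6%).

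None of these 4 calls held in every alternative. Of the 3 members called higher, 0 were left without NF1-MET capmatinib replicate 2, without NF1-MET;sgP53 capmatinib replicate 1 or with no count filter, 1 without NF1-MET capmatinib replicate 1 or in DESeq2, and 2 without NF1-MET;sgP53 capmatinib replicate 2. The call of *Bgn* was lost without NF1-MET capmatinib replicate 1 (adjusted p = 0.0613) or without either NF1-MET;sgP53 capmatinib library (adjusted p = 0.0696 and 0.106), in DESeq2 (adjusted p = 0.0550) and in the bias-adjusted test of edgeR (adjusted p = 0.0506), and with library totals the value turned to 0.0535.

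The test of the difference itself, the interaction of line and capmatinib over 8 libraries, asks whether capmatinib changed a gene by another factor in NF1-MET;sgP53 than in NF1-MET. Of the 7 members 4 were below 0 and none above 0 in edgeR, where 5.86% of genes were called below 0 and 3.85% above 0. *Ogn* was at -1.67 (SE 0.0658, adjusted p = 3.68e-15), so its factor in NF1-MET;sgP53 was 0.315 of that in NF1-MET. It ranked 3 from the lowest of the 9071 genes and, counted from the highest, 14390 of all 14497 genes tested. *Omd* was at -0.74 (SE 0.169, adjusted p = 0.00491), *Prelp* at -0.58 (SE 0.157, adjusted p = 0.0170) and *Bgn* at -0.14 (SE 0.0208, adjusted p = 4.10e-05). *Fmod* (-1.14, SE 0.416, adjusted p = 0.0895) and *Aspn* (-0.38, SE 0.284, adjusted p = 0.523) did not pass, nor did *Dcn*, the one member above 0 (0.53, SE 0.378, unadjusted p = 0.171, adjusted p = 0.452). DESeq2 called the same 4 below 0 and none above 0, and gave no adjusted p for *Dcn*.

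The capmatinib and line comparisons share libraries, so their values are given side by side. For *Ogn*, the lines were at 4.75 ± 0.297 and 16.1 ± 0.951 CPM with vehicle and at 399 ± 6.70 and 427 ± 4.64 CPM with capmatinib. For *Prelp*, they were at 1.395 ± 0.260 and 2.17 ± 0.0705 CPM with vehicle and at 132 ± 4.80 and 136 ± 5.49 CPM with capmatinib. For *Omd*, they were at 1.94 ± 0.222 and 3.04 ± 0.136 CPM with vehicle and at 12.8 ± 0.560 and 12.1 ± 0.00866 CPM with capmatinib. In each of the 3 genes the lines stood further apart, as a ratio, under vehicle than under capmatinib. The interaction of *Prelp* was lost without NF1-MET vehicle replicate 1 (-0.42, adjusted p = 0.263), without NF1-MET;sgP53 vehicle replicate 2 (-0.55, adjusted p = 0.114) and with library totals (adjusted p = 0.249). That of *Omd* was lost without NF1-MET vehicle replicate 2 (-0.62, adjusted p = 0.0604) and with library totals (adjusted p = 0.0603), that of *Bgn* with library totals (adjusted p = 0.926), and *Fmod* passed in the bias-adjusted test (adjusted p = 0.0295).

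Levels of different genes were compared per length, as CPM per kilobase of merged exons (2249 to 6099 bases). Merged exons hold the bases of all annotated transcripts of a gene, 8 for *Bgn*, 5 for *Dcn* and 1 for *Ogn*. They can be longer than the transcript in use, so orders, ratios and shares between genes depend on this choice of length. *Bgn* led in every group, at 403 ± 1.74 in NF1-MET with vehicle, 774 ± 3.60 with capmatinib, 426 ± 2.78 in NF1-MET;sgP53 with vehicle and 741 ± 2.69 with capmatinib, all in CPM per kilobase. *Ogn* was second in every group, at 1.85 ± 0.116, 156 ± 2.61, 6.26 ± 0.371 and 166 ± 1.81 CPM per kilobase in the same order. On this scale *Bgn* was 218 times *Ogn* in NF1-MET and 68.0 times in NF1-MET;sgP53 under vehicle, and 4.98 times and 4.45 times under capmatinib.

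Behind them the order changed with treatment. With vehicle *Omd* and then *Prelp* came next in both lines, at 0.861 ± 0.0985 and 0.386 ± 0.0719 CPM per kilobase in NF1-MET, and at 1.35 ± 0.0606 and 0.601 ± 0.0195 CPM per kilobase in NF1-MET;sgP53. *Aspn* and *Dcn* followed, and they could not be ordered. In NF1-MET their vehicle libraries overlapped, and in NF1-MET;sgP53, where they did not, the intervals from the summed counts did. The level of *Dcn* was 0.275 CPM per kilobase (exact 95% Poisson interval 0.229 to 0.328) and that of *Aspn* 0.264 (0.195 to 0.351) in NF1-MET;sgP53. *Fmod* had the lowest mean of the 7 in both vehicle groups. In NF1-MET;sgP53 with vehicle its interval (0.115 to 0.218) overlapped that of *Aspn*, so these could not be ordered there either.

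With capmatinib the order was the same in both lines. After *Bgn* and *Ogn* came *Prelp*, *Aspn*, *Omd*, *Fmod* and *Dcn*, and no neighbours in that order overlapped. In NF1-MET the levels were 36.5 ± 1.33, 11.6 ± 0.161, 5.70 ± 0.249, 3.69 ± 0.0198 and 0.109 ± 0.0213 CPM per kilobase. In NF1-MET;sgP53 they were 37.7 ± 1.52, 11.1 ± 0.421, 5.39 ± 0.00385, 4.46 ± 0.181 and 0.223 ± 0.00795 CPM per kilobase. *Aspn* stood below *Omd* with vehicle and above it with capmatinib.

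Summed over the 8 genes, the level per kilobase was 407 ± 1.96 and 987 ± 7.45 in NF1-MET with vehicle and capmatinib, and 435 ± 2.43 and 967 ± 1.78 in NF1-MET;sgP53. The share of *Bgn* in that sum was 99.1% ± 0.0492 and 98.0% ± 0.0925 in the vehicle groups and 78.4% ± 0.227 and 76.7% ± 0.137 in the capmatinib groups. *Ogn* held 15.8% and 17.2% of it under capmatinib, and *Prelp* 3.70% and 3.90%. Without *Bgn* the sum was 59.9 times as high with capmatinib as with vehicle in NF1-MET and 25.3 times in NF1-MET;sgP53. These are sums of RNA levels, and the proteins were not measured in these libraries.

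**Figure D3:**
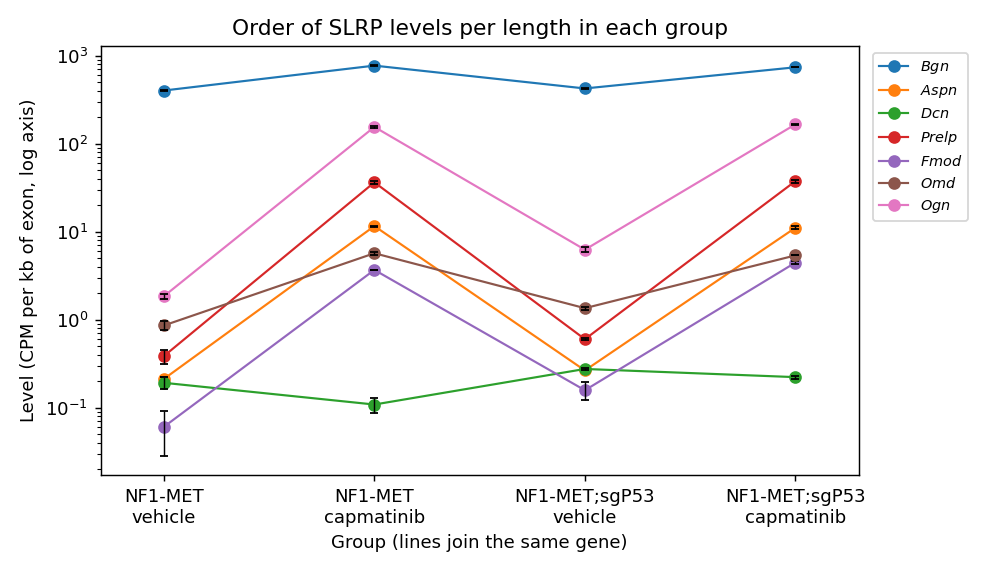
Mean level of each SLRP gene in each group in CPM per kilobase of exon on a log axis, with bars of 1 SD of 2 libraries. *Bgn* and *Ogn* are first and second in all 4 groups, while *Aspn* and *Prelp* pass *Omd* under capmatinib.

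The neighbours on the chromosomes give the local setting of the rises. In the chromosome 13 row of 4 SLRP genes, which spans 119692 bases, all 4 rose in both lines. *Ecm2* went from 0.0777 to 2.46 CPM in NF1-MET, a log2 difference of 4.89 (SE 0.394), and from 0.0613 to 2.20 CPM in NF1-MET;sgP53, by 5.01 (SE 0.449). The host gene *Cenpp*, a centromere protein gene whose span holds the row, was at 8.43 and 9.41 CPM in NF1-MET (0.14, SE 0.0934, adjusted p = 0.192) and at 9.48 and 9.47 CPM in NF1-MET;sgP53 (-0.000918, SE 0.0873, adjusted p = 0.994). Of the nearest genes tested on either side, *Ippk* did not pass the test in either line (0.02 and -0.12), and *Nol8* was lower in both (-0.50 and -0.55). Further out before the row, *Bicd2* (0.47 and 0.39) and *Fgd3* (2.80 and 2.10) rose in both lines.

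On chromosome 1, *Prelp*, *Optc* and *Fmod* lie within 151079 bases. *Optc*, which codes for opticin of the eye's vitreous, went from 0.202 to 5.18 CPM in NF1-MET (4.68, SE 0.270) and from 0.455 to 7.19 CPM in NF1-MET;sgP53 (3.98, SE 0.186). Here the nearest tested genes outside also rose, *Atp2b4* (3.69 and 3.77), a plasma membrane calcium pump, and *Btg2* (3.76 and 3.40), an antiproliferative gene. On chromosome 10, *Lum*, *Kera* and *Epyc* next to *Dcn* had a mean of 0 to 0.0142 CPM in each group. Around *Bgn*, the nearest tested gene *Haus7* did not pass the test in either line (0.13 and -0.09), and on the other side *Dusp9* fell (-2.45 and -2.82) and *Pnck* rose (2.77 and 4.37).

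Counts of calls in related lists are set beside the shares over all genes tested, which were 35.5% higher and 34.7% lower for NF1-MET, while for NF1-MET;sgP53 they were 34.2% and 33.4%. Of 10 other SLRP genes, 6 were tested, of which NF1-MET had 6 risers and NF1-MET;sgP53 had 5, with median log2 differences of 1.97 and 2.00 beside 0.00 over all genes, and all 6 differences were above 0. Beside *Ecm2* and *Optc*, *Podnl1*, a podocan-like gene, went from 4.71 to 15.9 CPM in NF1-MET (1.73, SE 0.0920) and from 9.04 to 16.4 CPM in NF1-MET;sgP53 (0.85, SE 0.0785). *Podnl1* differed between the lines by 0.92 under vehicle (adjusted p = 5.74e-07) and by 0.05 under capmatinib (adjusted p = 0.742), and its interaction was -0.89 (SE 0.115, adjusted p = 7.09e-06). The 4 not tested, *Kera*, *Epyc*, *Chad* and *Nyx*, had 0 or 1 count in each library.

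The enzymes that build the sugar chains had calls in both directions, as all genes did. Of 25 tested genes of chondroitin and dermatan sulfate synthesis, 12 rose and 8 fell in NF1-MET, and 12 rose and 7 fell in NF1-MET;sgP53, with medians of 0.12 and 0.19. *Papss2*, which makes the sulfate donor, rose from 6.11 to 35.9 CPM in NF1-MET (2.54) and from 9.69 to 42.4 CPM in NF1-MET;sgP53 (2.13). *Csgalnact1*, which starts chondroitin chains, fell from 78.4 to 23.6 CPM (-1.75) and from 65.6 to 25.1 CPM (-1.39). Of 6 tested genes of keratan sulfate synthesis, 2 rose and 3 fell in NF1-MET and 2 rose and 4 fell in NF1-MET;sgP53, with medians of -0.45 and -0.43. *B4galt1*, a galactosyltransferase, rose by 0.36 and 0.42, *Fut8*, which adds core fucose, fell by 0.61 and 0.39, and *Chst1*, a keratan sulfate sulfotransferase, fell by 0.56 in each line.

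The collagens that SLRPs bind mostly rose. Of 13 tested genes of fibril collagens and their partners, 12 rose and 1 fell in each line, with medians of 2.05 and 1.73. *Lox*, the enzyme that cross-links collagen, rose from 80.6 to 1382 CPM in NF1-MET (4.08, SE 0.0240) and from 138 to 1479 CPM in NF1-MET;sgP53 (3.43, SE 0.0274). *Col5a3* was the one that fell, by 0.65 and 0.80. Of 11 tested genes of SLRP processing and turnover, 8 rose and 2 fell in each line, with medians of 0.68 and 0.73, and *Adamts5*, a protease that cuts proteoglycan cores, rose from 7.32 to 139 CPM (4.24) and from 12.97 to 199 CPM (3.94).

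Of 14 tested receptors and ligands bound by SLRPs, 10 rose and 4 fell in each line, with medians of 0.61 and 0.54. *Tgfb2* rose from 3.18 to 42.1 CPM in NF1-MET (3.70) and from 3.81 to 44.8 CPM in NF1-MET;sgP53 (3.54), while *Tgfb1* fell by 0.94 and 0.54 and *Cd44*, the hyaluronan receptor, by 0.91 and 0.83. Among 13 tested genes of other proteoglycans and link proteins, 8 rose and 3 fell in NF1-MET and 10 rose and 3 fell in NF1-MET;sgP53, with medians of 0.47 and 0.63. The glypican *Gpc6* rose by 1.87 and 1.58, and *Esm1*, the endocan gene, fell by 2.65 and 2.64. The members' medians of 5.75 and 4.73 were above those of all 7 lists, none of which was compared with the members by a test. Members and lists were chosen with earlier results of these data known, so this order is a description.

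**Figure D4:**
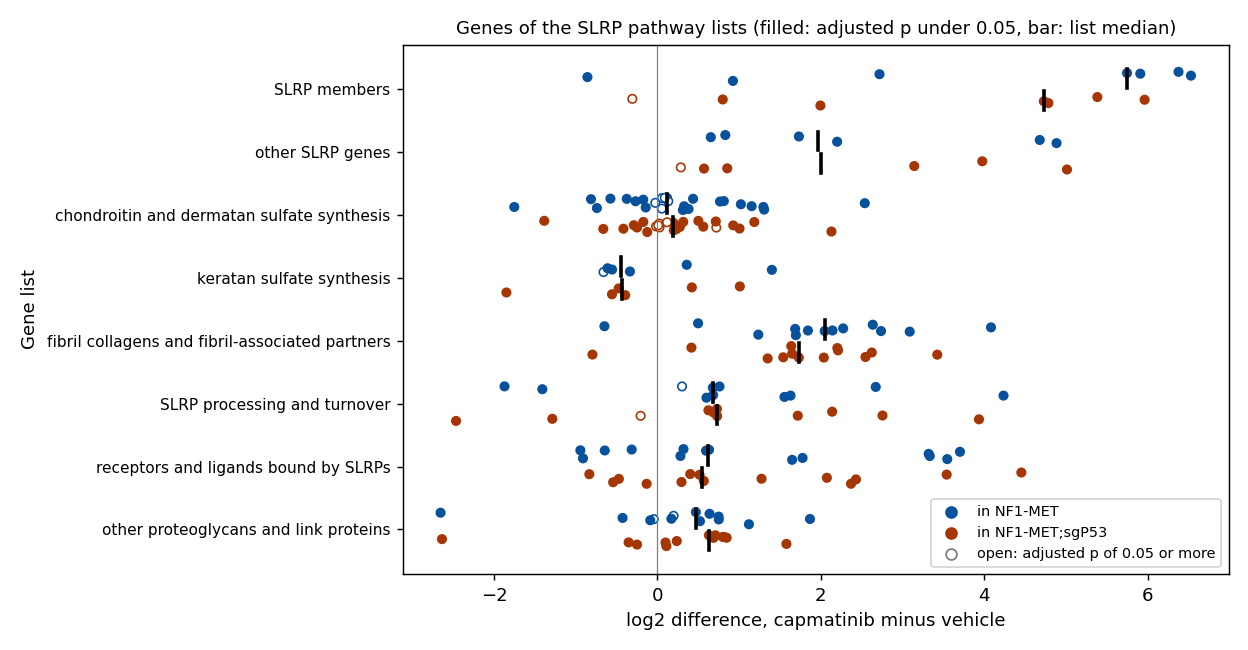
Log2 difference of capmatinib minus vehicle for each tested gene of the SLRP members and of 7 related lists in both lines, filled where the adjusted p is under 0.05, with a bar at the list median. The members' medians are 5.75 and 4.73, the collagen list's 2.05 and 1.73, and those of the keratan sulfate enzymes -0.45 and -0.43.

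Genes with the most similar course over the 8 libraries were sought for each member with at least 10 CPM in one group, among 9065 other such genes, by the root mean square difference of log2 CPM after centring each gene. A difference of 0.10 means that the courses were apart by 0.10 on the log2 scale in a typical library. The libraries are shared, so this is a description. *Bgn* was closest to *Timp2* (0.0227), *Kctd10* (0.0236) and *Abracl* (0.0267), and *Omd* to *Ccn1* (0.0896), *Unc5c* (0.0976) and *Lrrc75b* (0.0991).

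This measure grows with the size of a gene's changes, so its values are not compared between members. *Ogn* was closest to *Cnn1* (0.167), *Ccn5* (0.224) and *Lmod1* (0.282), *Prelp* to *Lims2* (0.227), *Lmod1* (0.327) and *Itga11* (0.378), *Fmod* to *Plxdc2* (0.331), *Myl9* (0.359) and *Lmod1* (0.370), and *Aspn* to *Mustn1* (0.373), *Lmod1* (0.376) and *Plxdc2* (0.394). *Lmod1*, a leiomodin gene of smooth muscle, was among the 3 closest for *Ogn*, *Prelp*, *Fmod* and *Aspn*. *Cnn1*, calponin of smooth muscle, showed the course of *Ogn*, at 1.80 ± 0.288 and 153 ± 0.191 CPM in NF1-MET and at 7.02 ± 0.471 and 192 ± 5.75 CPM in NF1-MET;sgP53.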

How the data were processed

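Raw read counts per gene were deposited by the authors as whole numbers, without normalization or filtering, for 8 libraries of 4 groups. Per the labels, their steps used bcl2fastq 1.9.0, Trim Galore 0.4.2, FastQC 0.11.7 and STAR 2.5.2b with the mm10 genome. The reads were paired and 50 bases long, and the annotation and strand setting are not given in the sources used here. Sequencing depth was 30116810 to 42781371 counts per library. The count filter was 10 in 2 or more libraries, which 14497 genes passed, and a comparison also needed counts above 0 in 2 of its libraries. The genes removed held 0.0396% of counts.

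TMM factors, dispersions and quasi-likelihood F-tests (edgeR 4.0.16 in R 4.3.3) were computed on the 4 libraries of a pairwise comparison and on all 8 for the interaction, with Benjamini-Hochberg adjustment over all genes and a threshold of 0.05. Standard errors came from the log2 difference and the F statistic. The procedure was run on simulated data in which few genes changed, as many up as down, at a fixed dispersion. In the real data most genes were called with capmatinib and the share of *Gm42418* varied, so that run does not cover the scaling here. Members and lists were chosen with earlier results of these data known. By a fixed rule the text names all 8 members in each comparison, the called gene of each list with the largest rise and fall and at least 10 CPM in the higher group, the 3 genes most like each member, *Trp53*, *Gm42418* and SLRP genes next to members. *Cenpp*, *Ippk*, *Nol8*, *Atp2b4*, *Btg2*, *Haus7*, *Bicd2*, *Fgd3*, *Dusp9* and *Pnck*, the marker genes named singly and the interaction of *Podnl1*, were chosen after values were seen. Of the marker list of Schwann cells, 1 gene is not reported here. Positions came from GENCODE M21 (99.6% of identifiers found) and promoters from RefSeq. Alternatives used DESeq2 1.42.0 (size factors or Wald test), library totals, edgeR's bias-adjusted test, other filters, a replicate block, 1 model of 8 libraries, no *Gm42418*, and each library left out.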

Additional observations from a re-analysis of the deposited data

Results flagged for a closer look

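The interaction of line and capmatinib picked out 4 members whose response differed between NF1-MET and NF1-MET;sgP53 by a test of the difference itself. Their log2 values, NF1-MET;sgP53 minus NF1-MET, were -1.67 for *Ogn*, -0.74 for *Omd*, -0.58 for *Prelp* and -0.14 for *Bgn* (edgeR, adjusted p = 3.68e-15, 0.00491, 0.0170 and 4.10e-05). The call of *Ogn* held in every alternative run, while with library totals those of *Prelp*, *Omd* and *Bgn* were lost (adjusted p = 0.249, 0.0603 and 0.926), and those of *Prelp* (without NF1-MET vehicle replicate 1 or NF1-MET;sgP53 vehicle replicate 2, adjusted p = 0.263 and 0.114) and *Omd* (without NF1-MET vehicle replicate 2, adjusted p = 0.0604) were lost when 1 library was left out. In all 4 genes capmatinib raised the RNA in both lines, by the smaller factor in NF1-MET;sgP53. The vehicle level was higher in NF1-MET;sgP53 in all 4 (log2 differences of 1.74, 0.63, 0.61 and 0.06), and the vehicle libraries enter both values. The 8 Schwann cell markers, 5 of which were under 1 CPM in every library, summed to 23.4 to 26.6 CPM in the vehicle libraries. In the capmatinib libraries they summed to 79.4 to 80.5 CPM (NF1-MET) and 72.1 to 73.7 CPM (NF1-MET;sgP53), most of it *Egr2*. Of 6 tested for capmatinib, 3 were called higher and 1 lower in NF1-MET, and 3 higher and 2 lower in NF1-MET;sgP53. *Dhh* fell in both lines (-1.43 and -1.09) and *S100b* in NF1-MET;sgP53 (-1.95). The part of these markers in the interaction values was not tested.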

How the results depend on the processing

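The 6 rises with capmatinib kept their direction and call in both lines in all alternatives run. Under DESeq2's Wald test, 0 members were called lower with capmatinib in NF1-MET, 2 higher in NF1-MET;sgP53 under vehicle, and 1 higher and 0 lower under capmatinib. With no count filter, 0 were higher between the lines under capmatinib. With the bias-adjusted test or library totals, 0 were lower there. With library totals 1 member was called below 0 in the interaction, and the line differences under capmatinib of *Bgn* (0.0535), *Aspn* (0.0515) and *Omd* (0.0318) changed sign. That scaling moved the median of all genes to -0.18 and -0.12 for capmatinib in NF1-MET and NF1-MET;sgP53 and to 0.11 for the lines under capmatinib. The causes were not tested. Leaving out 1 library, in a model where the lone sample is assumed to vary like the other groups, gave 0 to 1 members lower with capmatinib in NF1-MET, 4 to 5 higher between the lines under vehicle, 0 to 2 higher and 0 to 1 lower under capmatinib, and 3 to 4 below 0 in the interaction.

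Calls over all genes that moved were, for capmatinib in NF1-MET, 5140 higher and 5029 lower against 3508 and 6381 with library totals, and in NF1-MET;sgP53 4963 and 4841 against 3260 and 4933. For the lines under vehicle they were 1580 and 1775 against 1280 and 743 (library totals), 2046 and 1533 (1 model of 8 libraries) and 833 and 1100 (DESeq2), and under capmatinib 860 and 918 against 537 and 129 (library totals), 436 and 434 (DESeq2) and 515 and 555 (no filter). For the interaction, 558 above and 849 below 0 became 192 and 123 (library totals), 664 and 730 (DESeq2 size factors), 746 and 628 (no filter), 873 and 612 (without *Gm42418*) and 433 and 461 (DESeq2). Of 364 list counts recomputed, 363 were within 1.5 times, and chondroitin and dermatan sulfate genes higher in NF1-MET;sgP53 moved from 12 to 7 with library totals.

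Whether same-numbered wells of different groups were paired is not given in the sources used here. The correlation of their deviations was -0.05 to 0.10 over 4 group pairs, which does not settle it. With the replicate as a block, 10141, 9866, 3994, 1777 and 1524 genes were called in the order used in the text (10169, 9804, 3355, 1778 and 1407 without it), and no member's call changed. *Dcn*, *Fmod* and *Aspn* had under 70 counts in every vehicle library, which limits their differences between lines.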
